A study of Mus musculus with 11 samples.

Results

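The miR-29 family of the mouse was measured through 3 members on the array, mmu-miR-29a, mmu-miR-29b and mmu-miR-29c, among 334 mouse miRNAs. The members were chosen by name. Each had 4 plus-strand spots, so 12 of the 1336 mouse spots of every array belonged to the family. The 11 arrays comprised normal mammary glands of late-pregnant females from FVB (n = 2), Balbc (n = 3) and FVB129B6 (n = 3) mice and C3TAg mammary tumors (n = 3). The tumors arose in FVB mice that carry the SV40 T/t-antigens under the C3(1) promoter, which is taken from a rat prostate steroid-binding protein gene. The gland donors carry no transgene that the labels name. A gland is a mixture of epithelium, stroma, vessels, blood cells and adjoining muscle, and fewer cells of a type and less RNA per cell cannot be told apart. By the methods each tumor came from its own mouse, but nothing states this for the glands, and the titles of Balbc replicates 2 and 3 could name 2 glands of 1 mouse. The p-values between strains therefore measure the spread between these arrays, which may be technical.

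The miR-29 family is best known as a brake on the extracellular matrix. Its members pair through a common seed with transcripts of fibrillar and basement-membrane collagens, elastin and other matrix genes, and they also act on de novo DNA methyltransferases. In breast tissue the luminal transcription factor GATA3 is known to raise miR-29b, and loss of the family is commonly described in fibrosis and in invasive tumors. These are background facts. The arrays measured miRNAs only, so control of the matrix itself was not measured here.

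The mature sequences are shown because the members share their seed and differ by a few bases, which bears on what each spot can tell apart. They were taken from RefSeq (GRCm38.p6), where all 3 members matched, and are written 5′ to 3′ with the seed, bases 2 to 8, in capitals.
mmu-miR-29a-3p: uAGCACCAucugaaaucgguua
mmu-miR-29b-3p: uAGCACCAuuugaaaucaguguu
mmu-miR-29c-3p: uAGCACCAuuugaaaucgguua
The seed AGCACCA was held by these 3 names alone among the 1679 mature mouse names of the table. With positions counted from 1 at the 5′ end, miR-29c differs from miR-29a by C10U only. miR-29b differs from miR-29a by C10U, G18A, U21G and A22U over 22 bases, and miR-29c differs from miR-29b by A18G, G21U and U22A. The genes form 2 tandem pairs. The hairpin of Mir29a lies at chr6:31062660-31062747 and that of Mir29b-1 at chr6:31063023-31063093, both on the minus strand and 275 bases apart. The hairpin of Mir29b-2 lies at chr1:195037040-195037120 and that of Mir29c at chr1:195037547-195037634, both on the plus strand and 426 bases apart. Both miR-29b hairpins give the same mature sequence, so the miR-29b spots cannot tell the pairs apart.

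The probes carry the complement of the mature miRNA. The stretches that pair with their own member are shown because they are nearly alike.
probe of mmu-miR-29a: aaccgatttcagatggtgcta
probe of mmu-miR-29b: aacactgatttcaaatggtgcta
probe of mmu-miR-29c: accgatttcaaatggtgcta
The stretch for miR-29c met miR-29a with 1 mismatch and miR-29b with 1 mismatch over 20 bases, and the stretch for miR-29a met miR-29c with 1 mismatch over 21 bases. The miR-29b stretch was the more distinct, with 4 mismatches to miR-29a and 3 to miR-29c over 22 bases. The nearest probes of other miRNAs, those of miR-195 and miR-16, lay 8 to 10 base edits away. Binding of one member to the spots of another was not tested, and levels of different probes are not compared.

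Levels are log2 green (Hy3) intensities minus the array's median over the 1336 spots, averaged over the spots of a miRNA, so a level of 0 is the median of the array. The scanner program calls each spot well above background or not, and a miRNA was taken as measured on an array if 50% or more of its spots had that call. By this measure 209 to 262 of the 334 miRNAs were above background on the gland arrays and 15 to 64 on the tumor arrays. The array median lay between 188.5 and 245.5 intensity units on the FVB arrays, between 508 and 671.5 on the other glands and between 125 and 170 on the tumors. All glands lay on 1 slide, whose last column held the FVB arrays and no others. The tumors lay on another slide, read with another program version. Tumor and slide therefore cannot be told apart, and neither can FVB and its slide column.

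In every gland the miR-29 spots were far brighter than background. All 96 member spots on the 8 gland arrays were called well above background, and the SD among the 4 spots of a member ran from 0.010 to 0.117 on the log2 scale. On FVB replicates 1 and 2, miR-29a stood at 7.24 and 6.50. Its Balbc levels were 6.01, 6.83 and 5.77, and its FVB129B6 levels were 6.14, 6.13 and 6.23. The lower FVB gland lay within the range of the Balbc glands, and both FVB glands lay above all FVB129B6 glands. The FVB129B6 glands were nearly equal to each other.

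miR-29b, the member made from both clusters, stood at 7.27 and 5.56 in FVB glands. It stood at 5.59, 6.41 and 5.20 in Balbc and at 5.70, 5.87 and 5.76 in FVB129B6 glands. The higher FVB gland exceeded all others, while the lower one lay within the Balbc range. miR-29c stood at 3.40 and 1.15 in FVB glands, at 2.38, 2.43 and 1.74 in Balbc and at 2.02, 1.97 and 2.01 in FVB129B6 glands. The 2 FVB glands were thus the highest and the lowest of all 8 for miR-29c.

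**Figure D1:**
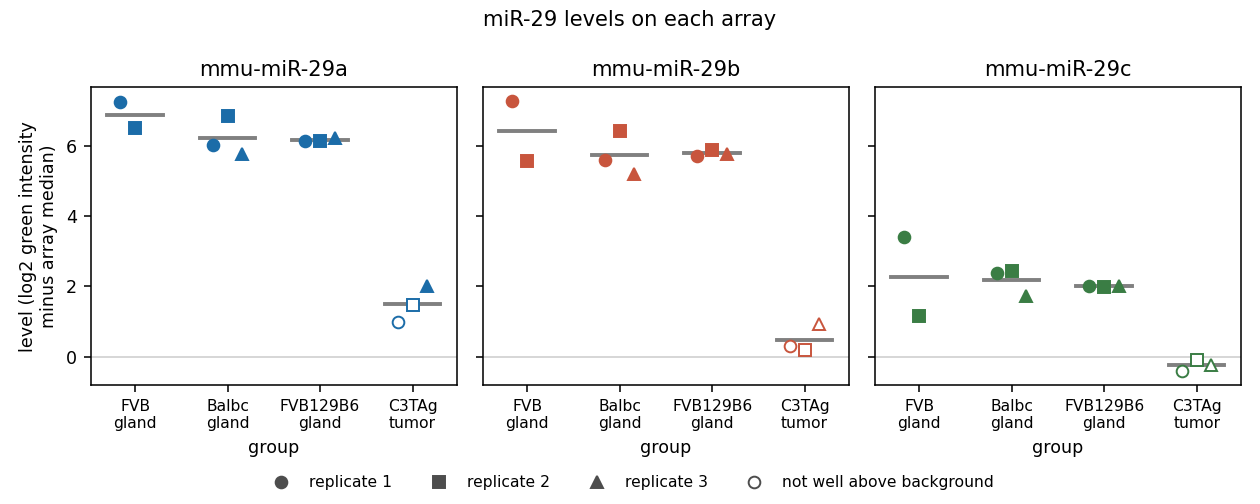
Levels of the 3 members (log2 green intensity minus the array median) on every array, with 1 panel per member, symbols for replicate numbers, grey lines for group means and open symbols for arrays where the member was not well above background. The gland levels overlap between strains except for miR-29a, where both FVB glands lie above all FVB129B6 glands, the FVB replicates lie far apart for miR-29b and miR-29c, and all tumor arrays lie below all glands at this scaling.

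The comparison of strains asked whether normal glands differ between the strains. No member was called. The moderated F-test of limma for any difference among strains, adjusted by Benjamini-Hochberg over 261 miRNAs, gave adjusted p = 0.214 for miR-29a, 0.470 for miR-29b and 0.904 for miR-29c. The count of 0 of 3 members (also 0 at an unadjusted p under 0.05) stood beside 46.0% of all 261 miRNAs called by the same test. The mean level of miR-29a was 6.87 ± 0.53 (SD, n = 2) in FVB, 6.20 ± 0.55 (SD, n = 3) in Balbc and 6.17 ± 0.05 (SD, n = 3) in FVB129B6 glands. That of miR-29b was 6.41 ± 1.21 (SD, n = 2), 5.73 ± 0.62 (SD, n = 3) and 5.78 ± 0.08 (SD, n = 3) in the same order. That of miR-29c was 2.28 ± 1.59 (SD, n = 2), 2.18 ± 0.38 (SD, n = 3) and 2.00 ± 0.02 (SD, n = 3). The order of the means was FVB first for every member at this scaling. The FVB and Balbc means of miR-29a lay farther apart than either SD, but no difference between strains was called. Without normalization the Balbc mean was above the FVB mean for every member, by log2 differences of 0.69, 0.67 and 1.26, none called.

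Between Balbc and FVB glands the limma contrast called 0 of 3 members, against 37.9% of all miRNAs tested. The log2 difference of miR-29a was -0.67 (95% interval -1.47 to 0.14, adjusted p = 0.155, limma), that of miR-29b -0.68 (-1.89 to 0.52) and that of miR-29c -0.09 (-1.43 to 1.24). The median difference of all 261 miRNAs was -0.48, so the first 2 members lay close to the middle of the array. Between FVB129B6 and FVB glands the contrast again called 0 of 3, against 39.5% of all. The differences were -0.70 for miR-29a (95% interval -1.50 to 0.10, adjusted p = 0.139, limma), -0.64 for miR-29b (-1.84 to 0.57) and -0.28 for miR-29c (-1.61 to 1.06), beside a median of -0.39 over all. Between Balbc and FVB129B6 glands 0 of 3 members and 3.45% of all miRNAs were called. These differences were 0.04 for miR-29a (95% interval -0.68 to 0.75), -0.05 for miR-29b (-1.12 to 1.03) and 0.18 for miR-29c (-1.02 to 1.38).

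The strain result of miR-29c depended on which FVB gland was used. Without FVB replicate 1, miR-29c was higher in Balbc than in the remaining FVB gland by 1.03 (adjusted p = 0.0343, limma), and without FVB replicate 2 it was lower by a log2 difference of -1.22 (adjusted p = 0.0272, limma). miR-29b moved from 0.17 to -1.54 (adjusted p = 0.791 and 0.0398, limma) under the same exclusions. In FVB129B6 minus FVB, the differences without FVB replicate 2 were -1.50 for miR-29b (adjusted p = 0.0362, limma) and -1.40 for miR-29c (adjusted p = 0.0153, limma), against 0.22 and 0.85 without FVB replicate 1 (adjusted p = 0.688 and 0.0610, limma). With 1 FVB array left, these fits took its spread from the other groups. Without Balbc replicate 2, miR-29a was lower in Balbc than in FVB by a log2 difference of -0.98 (adjusted p = 0.0318, limma). With slide row as a block, miR-29a was lower in FVB129B6 than in FVB (-0.80, adjusted p = 0.0418, limma).

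The gap between the FVB glands was larger for this family than for most miRNAs of the array. FVB replicate 1 exceeded replicate 2 by 0.74 for miR-29a, by 1.71 for miR-29b and by 2.24 for miR-29c, beside a median of -0.16 and a range of -2.77 to 2.79 over the 261 miRNAs. Of these, 22.6% had a larger absolute gap than miR-29a, 3.07% a larger one than miR-29b and 1.15% a larger one than miR-29c. Under the other scalings and backgrounds and as green over red the gap kept its direction for every member and lay between 0.56 and 1.34 for miR-29a, between 1.07 and 2.31 for miR-29b and between 1.54 and 2.84 for miR-29c. The skeletal muscle miRNAs went the other way between these glands: 4 of the 5 on the list were on the array, and replicate 1 was below replicate 2 by a median log2 difference of -2.22 (range -2.77 to -1.67). Their log2 summed level was 3.71 to 6.10 in FVB glands, 9.24 to 10.03 in Balbc and 8.52 to 8.69 in FVB129B6 glands. The same difference had a median of -0.997 over the 10 epithelial miRNAs (range -1.37 to 0.89) and ran from -0.69 to -0.48 over the 5 stromal ones. It was -0.68 to 1.46 over the 7 blood and lymphoid miRNAs, and 1.61 for miR-126-5p of the endothelium. On FVB replicate 2 miR-126-5p stood at -3.37, under the dimmest level called well above background there (-2.86), so its gap has no exact size. The part of these tissues in the miR-29 gap was not tested.

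**Figure D2:**
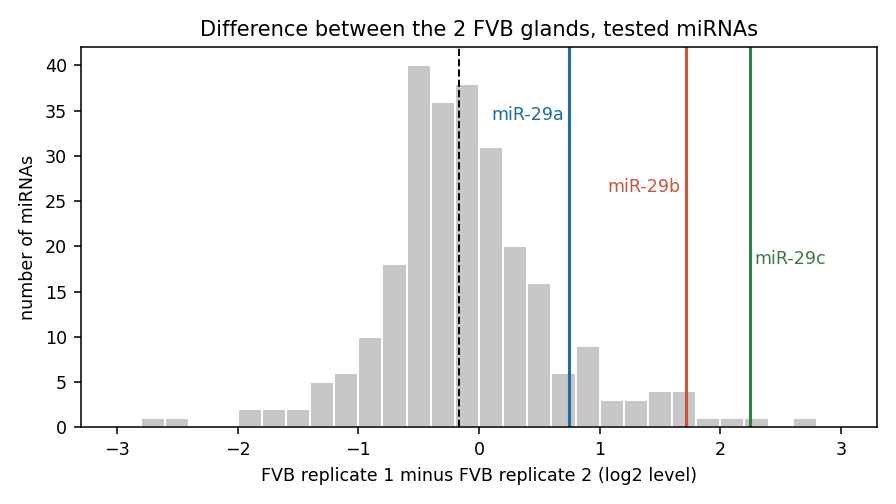
Histogram of the log2 level of FVB replicate 1 minus that of FVB replicate 2 for the 261 miRNAs tested between strains (count per bin), with the median as a dashed line and the 3 members as colored lines. miR-29a lies at 0.74, miR-29b at 1.71 and miR-29c at 2.24, all to the right of the median of -0.16.

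The FVB129B6 glands were the reverse case. The range over their 3 arrays was 0.10 for miR-29a, 0.17 for miR-29b and 0.04 for miR-29c, beside a median range of 0.37 over all 261 miRNAs. Only 2.30%, 8.05% and 0.0% of the miRNAs had a smaller range than these members. In Balbc glands the ranges were 1.05, 1.21 and 0.69, beside a median of 0.48. For miR-29a and miR-29b, Balbc replicate 2 was the highest of its group and replicate 3 the lowest.

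Across all 8 glands miR-29b varied with both other members, while miR-29a and miR-29c followed each other less closely. Without the FVB glands miR-29c followed miR-29a and miR-29b about equally. Over the 8 gland arrays, Pearson's r across arrays was 0.92 between miR-29a and miR-29b, 0.85 between miR-29b and miR-29c and 0.62 between miR-29a and miR-29c, as a description of points that share a slide and their scaling. Over the 6 glands without FVB the values were 0.97, 0.69 and 0.68. The miRNAs nearest in pattern to miR-29a were miR-350 (r = 0.94), miR-29b (0.92) and miR-132 (0.87). Those nearest to miR-29b were miR-219 (0.95), miR-29a (0.92) and miR-126-5p (0.90), and those nearest to miR-29c were miR-219 (0.93), miR-487b (0.85) and miR-29b (0.85). Each member thus had another member among the 3 nearest of 260 miRNAs. However, miR-29c ranked only 60th for miR-29a, and miR-29a ranked 17th for miR-29c. The part of binding of one member to the spots of another in these values was not tested. Without the FVB arrays the r of the first-ranked miRNA with miR-29a, miR-29b and miR-29c was 0.87, 0.88 and 0.66. That of miR-126-5p with miR-29b was 0.67. Since miR-126-5p was not well above background on some FVB and Balbc arrays, its r rests partly on background values. The median r with all other miRNAs was 0.28 for miR-29a, 0.10 for miR-29b and -0.05 for miR-29c.

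Differences between members on the same array do not depend on a scaling by 1 constant per array, though quantile normalization alters them, and show whether the members shifted unequally. Their size carries the difference between probes, so only their change between groups is compared. miR-29a minus miR-29b was -0.03 and 0.94 in FVB glands, 0.42 to 0.57 in Balbc and 0.26 to 0.46 in FVB129B6 glands. miR-29a minus miR-29c was 3.84 and 5.34 in FVB, 3.63 to 4.40 in Balbc and 4.13 to 4.21 in FVB129B6 glands. miR-29b minus miR-29c was 3.87 and 4.40 in FVB, 3.21 to 3.98 in Balbc and 3.68 to 3.89 in FVB129B6 glands. The groups overlapped for every pair. Exact two-sided permutation tests of the F ratio over 560 relabelings of the 8 glands gave p = 0.925 for miR-29a minus miR-29b, p = 0.607 for miR-29a minus miR-29c and p = 0.221 for miR-29b minus miR-29c. After adjustment over the 3 tests run, the exact permutation p-values were 0.925, 0.911 and 0.664. The strain means of these differences spanned 0.08, 0.57 and 0.59 on the log2 scale.

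**Figure D3:**
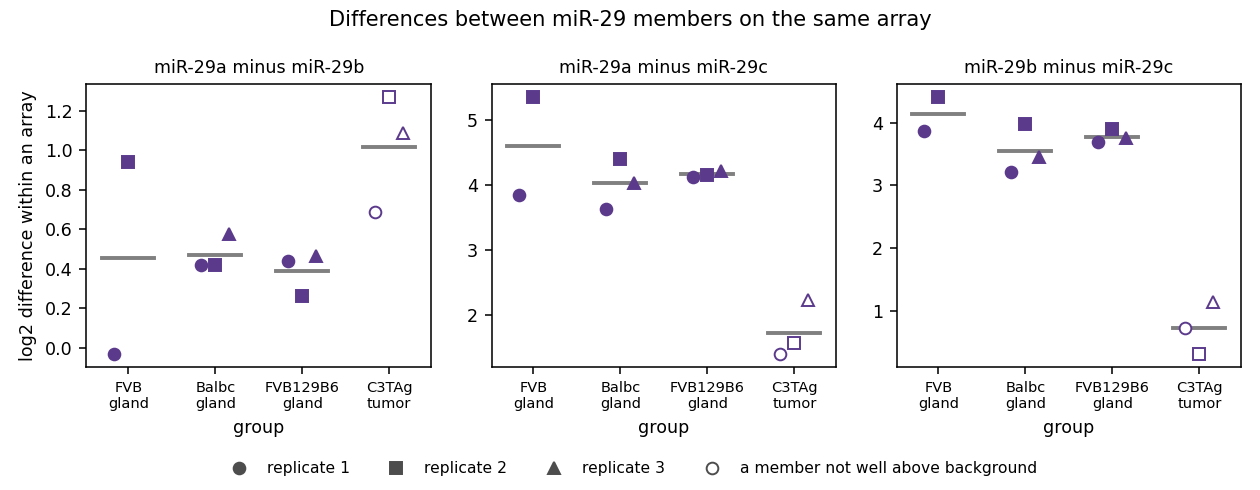
Log2 difference between 2 members on the same array, by group, with 1 panel per pair, each panel on its own axis, symbols for replicate numbers, grey lines for group means and open symbols where a member was not well above background. The glands of the 3 strains overlap in every panel, the FVB glands lie farthest apart for miR-29a minus miR-29b and miR-29a minus miR-29c, and every tumor value rests on at least 1 member at background.

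In the C3TAg tumors the family was near background, and only miR-29a gave called spots. miR-29a had levels of 0.99, 1.48 and 2.01 on tumor replicates 1, 2 and 3, with 0, 1 and 2 of its 4 spots well above background, so it counted as measured on 1 of the 3 arrays. The level of replicate 2 came from 1 spot of 6700 intensity units, while its other spots read 146 to 159. The median pixel of that spot was 186, against 89 to 95 for the other spots, so the brightness did not cover the spot evenly. miR-29b had levels of 0.30, 0.21 and 0.92, and miR-29c had levels of -0.41, -0.10 and -0.22, with none of their spots well above background on any tumor array. In all, 3 of 36 tumor spots of the family were called, against 96 of 96 gland spots.

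The tumor arrays differed from the gland arrays at the level of background as well. Spots of random 22-mers had median green intensities of 114 to 159.5 on the tumor arrays and of 14 to 22 on the glands. The median intensity of miR-29c was 107 to 142 on the tumor arrays, at or below those random spots. The median of miR-29b was 140.5 to 278.5 and that of miR-29a 153.5 to 511. On the glands the medians were 422 to 3095 for miR-29c, 8750 to 42900 for miR-29b and 17050 to 57850 for miR-29a.

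**Figure D4:**
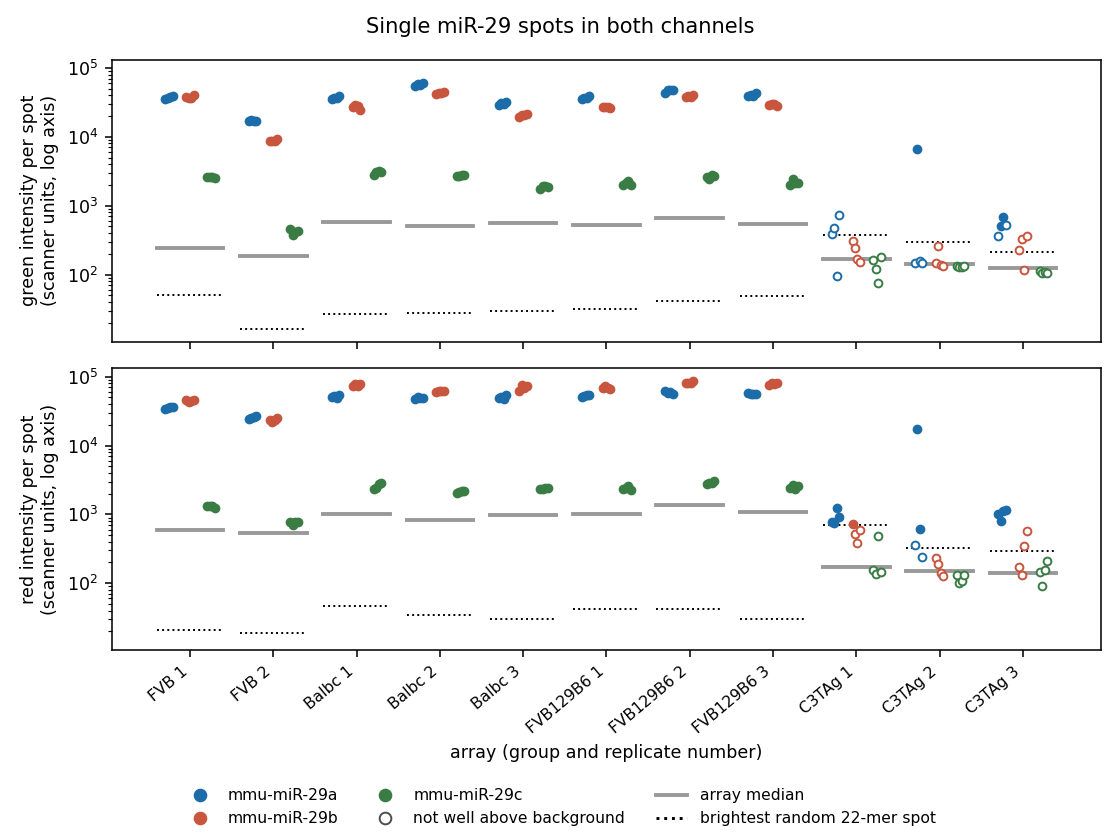
Intensity of each miR-29 spot in the green and the red channel (log axes, scanner units) on all 11 arrays, with filled symbols for spots well above background, grey bars for the array median and dotted bars for the brightest random 22-mer spot. In green, 3 of the 36 tumor spots are filled, all of miR-29a, and the brightest is the spot at 6700 on tumor replicate 2, while all 96 gland spots are filled.

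The comparison of tumors with glands asked how the family differs between this tumor model and normal mammary tissue. All 3 members were lower on every tumor array than on every gland array, as were 46.4% of the 261 miRNAs. The groups overlapped for miR-29c with the 75th percentile or the median of miRNAs detected on all arrays, and for miR-29b and miR-29c as green over red. limma's contrast with the mean of the 3 strain means called all 3 members lower, against 52.5% of all miRNAs called lower. miR-29b and miR-29c were measured on no tumor array, so they passed the filter through the glands alone. Their p-values therefore set gland levels against tumor background. The 261 miRNAs passed the same filter. With the FVB and tumor arrays alone 62 passed, and of the members only miR-29a. The log2 difference was -4.92 for miR-29a (standard error 0.28, adjusted p = 3.11e-08, limma), -5.50 for miR-29b (standard error 0.36, adjusted p = 9.38e-08, limma) and -2.40 for miR-29c (standard error 0.38, adjusted p = 0.000127, limma), beside a median of -0.83 over all miRNAs. Against FVB glands, the strain background of the tumors, all 3 were again called lower, as were 52.5% of all miRNAs. These differences were -5.38, -5.94 and -2.52, with adjusted p = 2.54e-07, 7.85e-07 and 0.000854 from limma. Both contrasts share the tumor and FVB arrays.

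Since the tumor levels lay mostly in background, the fitted differences have no exact size there. Their size was limited by the gland level of a member (6.41, 5.97 and 2.15 for miR-29a, miR-29b and miR-29c in the mean gland). Sizes are therefore not compared between members. A lower bound at a given scaling was computed beside the fitted differences. Each tumor array was entered at the member's level or, where that was lower, at the dimmest level called well above background on that array. By this bound at the array median scaling, miR-29a was at least 20.5-fold lower in tumors than in the mean gland. The bound was at least 18.1-fold for miR-29b and at least 1.28-fold for miR-29c. Against FVB glands the bounds were at least 28.1-fold, 24.6-fold and 1.40-fold. The array median lay near the random spots on tumors (125 to 170 against 114 to 159.5 intensity units). On glands it lay far above them (188.5 to 671.5 against 14.4 to 21.95). These folds therefore hold for this scaling only and do not bound the difference in RNA. The bounds moved with the scaling of the arrays. Quantile normalization gave the smallest, at least 1.76-fold for miR-29a and 1.80-fold for miR-29b against the mean gland, and no normalization the largest, at least 58.1-fold and 51.3-fold. For miR-29c, no fold can be given under the 75th percentile, quantile normalization or the median of the 15 miRNAs detected on all arrays, and with the dimmest called level of each array as a floor its contrast was not called (-0.36, adjusted p = 0.379, limma).

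The direction for miR-29c itself turned with the scaling: its contrast was 0.58 with the 75th percentile and 0.14 with the median of the miRNAs detected on all arrays (adjusted p = 0.189 and 0.801, limma). Under these scalings the median over all miRNAs was 2.14 and 1.70 in place of -0.83, since a new constant per array shifts every miRNA alike. As a ratio of green to red, miR-29a was still called lower (-1.17, adjusted p = 0.000686, limma), while miR-29b (0.34, adjusted p = 0.417, limma) and miR-29c (-0.54, adjusted p = 0.169, limma) were not called. No test of differences between members was run for the tumors, since neither miR-29b nor miR-29c was measured there. The within-array values were 0.69 to 1.27 for miR-29a minus miR-29b, 1.40 to 2.23 for miR-29a minus miR-29c and 0.30 to 1.14 for miR-29b minus miR-29c.

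**Figure D5:**
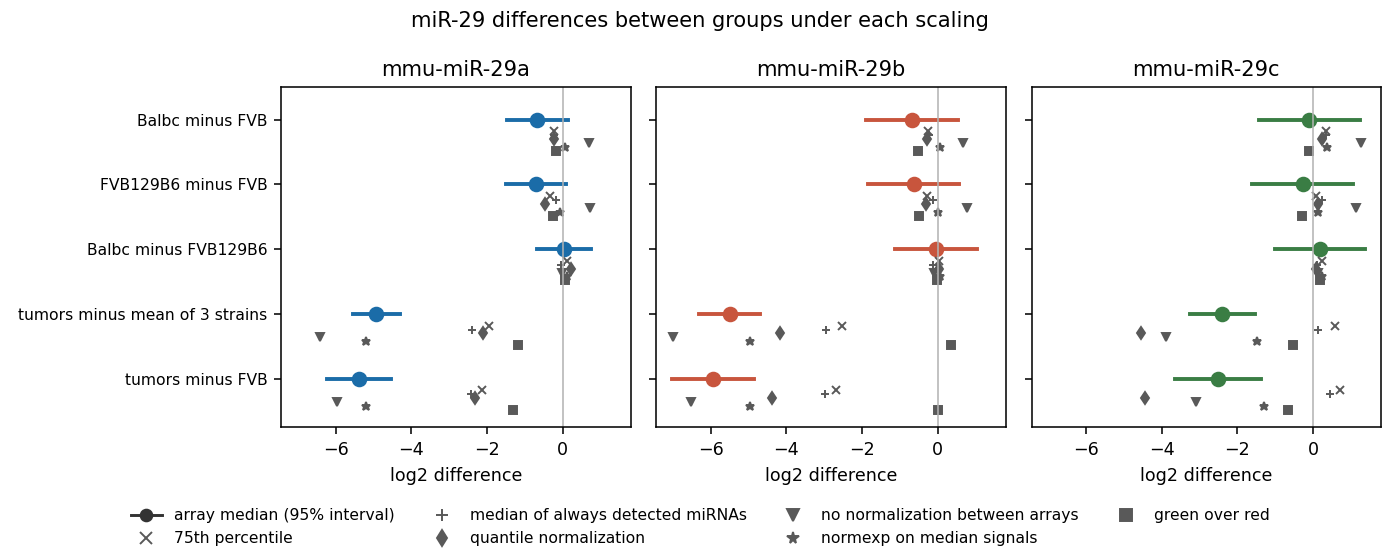
Log2 differences of each member in the 5 contrasts, as colored points with 95% intervals from limma for the array median scaling and as grey symbols for the other scalings, normexp and green over red. At the array median scaling the strain differences lie between -0.70 and 0.18, and all their intervals cross 0. The tumor differences of miR-29a lie below 0 in every setting shown. Those of miR-29b lie below 0 except for green over red against the mean gland, and those of miR-29c lie on both sides of 0.

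Other miRNAs linked by background knowledge to matrix or TGF-beta genes were read beside the family. Their list was written with earlier results of these data known. Of the 21 on that list 20 were on the array, and all 20 were tested. The list holds 6 miRNAs that are also tissue markers, among them members of the miR-200 family and miR-145. The limma F-test called 9 of the 20 between strains, beside 46.0% of all 261 miRNAs. In Balbc minus FVB, 2 were higher and 8 lower, beside 37.9% of all 261 miRNAs called. The median difference was -0.60 beside -0.48 over all. In FVB129B6 minus FVB, 2 were higher and 6 lower, beside 39.5% of all called, with a median of -0.37 beside -0.39. The higher ones were miR-133b and miR-21 in both contrasts. Between Balbc and FVB129B6 limma called 0 of the 20, beside 3.45% of all, with a median of -0.14. The largest strain difference was that of miR-133b, a muscle miRNA, at 4.58 in Balbc minus FVB (standard error 0.70, adjusted p = 0.00543, limma). In tumors minus the mean gland, 1 was higher and 19 were lower, beside 52.5% of all miRNAs called lower. The median was -5.29 beside -0.83 over all, and 13 of the 20 were measured on no tumor array. The higher one was miR-192, at 3.55 (adjusted p = 4.19e-08, limma). The largest of these differences was that of miR-26a, -7.62 (adjusted p = 4.32e-11, limma). The mean level of the list was 5.68 to 6.15 on gland arrays and 0.63 to 1.23 on tumor arrays. The size of a fall is limited by the gland level. The count and median of the list are therefore not read as a trait of matrix-linked miRNAs. A level of 0 lay near the random spots on tumors (array medians 125 to 170, random medians 114 to 159.5 intensity units). On glands it lay far above them (188.5 to 671.5 against 14.4 to 21.95). A miRNA dim on glands can thus be called higher without being measured in tumors. This was so for miR-126-5p, at 3.28 with no tumor array above background. How much of this offset the miR-192 call holds was not tested.

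Markers of the tissue were read beside the tumor result. All 10 epithelial miRNAs (the miR-200 family, miR-203, miR-205 and the miR-183 cluster) were well above background on every gland array, as the label of the tissue implies, but 1 to 5 of them on a tumor array, where their log2 summed level was 4.48 to 4.92 against 8.18 to 9.93 in the glands. Of 5 stromal miRNAs, all were above background on every gland array and 1 to 3 on a tumor array, with a log2 summed level of 3.54 to 4.73 in tumors and 9.24 to 10.29 in glands. Of 7 blood and lymphoid miRNAs, 0 or 1 was above background on a tumor array, with a log2 summed level of 3.21 to 4.20 in tumors and 7.26 to 9.72 in glands. Stromal miR-143, a smooth muscle miRNA, was at -8.64 in tumors minus the mean gland (adjusted p = 2.92e-11, limma), and epithelial miR-200b, which holds back mesenchymal transcription factors, was at -6.27 (adjusted p = 5.55e-09, limma). The skeletal muscle miRNAs had a log2 summed level of 2.10 to 4.79 in tumors, with 0 to 2 of the 4 above background, against 3.71 to 6.10 in FVB glands and 8.52 to 10.03 in the other glands. Against FVB glands limma called 1 of the 4 higher and 1 lower, beside 93 higher and 137 lower of all 261 miRNAs. The higher calls are subject to the offset between array medians given above. Of the 2 endothelial names only miR-126-5p was on the array, at -4.13 to -1.76 in glands, where some FVB and Balbc arrays missed it, and -0.07 to 0.21 in tumors, where it was not well above background on any array. By log2 summed level, the epithelial, stromal and blood lists were thus lower on all tumor arrays than on all glands, as was miR-29. A summed level follows the brightest members of a list, and the lists were read at the array median scaling only. In tumors minus the mean gland, limma called 9 of 10 epithelial, 5 of 5 stromal and 5 of 7 blood miRNAs lower. Beside these, 52.5% of all miRNAs were called lower. The muscle list was lower than in Balbc and FVB129B6 glands, while tumor and FVB values overlapped. The part of these lists in the miR-29 difference was not tested.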

How the data were processed

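Total RNA was labeled with Hy3 and/or Hy5 by the authors and hybridized to a custom Agilent miRNA array. Per the file headers, the Feature Extraction program (version 10.5.1.1 for glands, 9.5.1.1 for tumors) gave background-subtracted, dye-normalized intensity values for each spot, with other values that are 0 or 1 calls. The authors deposited a log2 table of the 1336 plus-strand mouse spots, which equals log2 green intensity plus 1 constant per array.

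The array median over these spots was subtracted from log2 green intensity, and the mean was taken over a miRNA's spots without outliers. A miRNA was tested when at least 50% of its spots were well above background on at least 3 arrays of the fit, and 261 passed, all 3 members included. Groups came from the sample labels. Strains (8 arrays) and tumors (11 arrays) were fitted with limma 3.58.1 in R 4.3.3, calling adjusted p under 0.05 (Benjamini-Hochberg). Differences within an array were tested by exact permutation with numpy 2.4.6. The fits were tested on simulated data. The study's filter on detection calls was replaced by the one above. Named miRNAs are the members, the 3 nearest in pattern to each, and the list member with the largest called difference; miRNAs of the tissue lists named beyond this are defining markers, and miR-21 and miR-192 were named after their values were seen. The members and lists were chosen with earlier results of these data known. The number of arrays limits precision. Alternatives were other scalings, normexp with an offset of 50, green over red, the deposited table, other filters, a floor, spot rules, each array left out, blocks and other sample sets.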

Additional observations from a re-analysis of the deposited data

Results flagged for a closer look

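The red channel is described by no label beyond the dye names, and its spots were not used for the comparisons except as a ratio. It held signal of all members on the glands, and of miR-29a on the tumors, above that of random 22-mer spots on the same arrays. On the glands, 96 of 96 member spots were well above background in red, with medians per array of 25200 to 59350 for miR-29a, 23150 to 81250 for miR-29b and 771 to 2890 for miR-29c, where no random spot exceeded 47.0. On the tumors, 10 of 12 miR-29a spots were well above background in red, against 3 of 12 in green, with 1 of 12 for miR-29b and 0 of 12 for miR-29c. On tumor replicate 2, 2 of the 4 miR-29a spots were called in red. The spot that was uneven in green was 1 of them, at 17400 against 243 to 622 for the others. The dimmest of these lay below the brightest random spot of that array. The red medians of miR-29a on tumor replicates 1, 2 and 3 were 849, 487.5 and 1060, each above the brightest random spot of its array (706, 328 and 293). Those of miR-29c were 119 to 151.5, near the random medians of 125 to 158. The red levels of the members varied less between glands than the green ones, with ranges of 0.47, 0.78 and 0.86 for miR-29a, miR-29b and miR-29c against 1.47, 2.07 and 2.24 in green, as did those of all tested miRNAs (median 0.57 against 1.33). FVB replicate 1 exceeded replicate 2 in red as well, by 0.30, 0.76 and 0.61. What RNA the red channel holds was not tested.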

How the results depend on the processing

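Unless named, no alternative changed a count of called members by over 1.5 times, and causes were not tested. Across the 3 strains 0 members were called; with each array left out the count was 0 to 1. Balbc minus FVB gave 0, and 0 to 2 with each array left out (1 without Balbc replicate 2 or FVB replicate 1, 2 without FVB replicate 2). FVB129B6 minus FVB gave 0, 1 with slide row as a block and 0 to 2 with each array left out. Balbc minus FVB129B6 gave 0 throughout. Tumors minus the mean gland and minus FVB glands gave 3, 1 with green over red in each and 1 with the 5 FVB and tumor arrays alone, where only miR-29a passed the filter. Keeping miRNAs well above background on every array left no member in the tumor fits. Tests within an array called 0 of 3 pairs in every setting (lowest adjusted exact permutation p of 0.0571, without Balbc replicate 2); for tumors they were not run.

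Directions turned as follows, in log2 differences with no call except where stated. Balbc minus FVB was 0.69, 0.67 and 1.26 for miR-29a, miR-29b and miR-29c without normalization and 0.063, 0.058 and 0.37 with normexp; miR-29c was 0.34 with the 75th percentile, 0.35 with the median of miRNAs detected on all arrays, 0.23 with quantile normalization and 0.032 with slide row as a block. Left-out arrays gave -1.54 (called) to 0.17 for miR-29b and -1.22 to 1.03 for miR-29c (called at both ends). FVB129B6 minus FVB was 0.71, 0.77 and 1.14 without normalization; miR-29c was 0.089 with the 75th percentile, 0.25 with the median of detected miRNAs, 0.14 with normexp and 0.14 with quantile normalization. Left-out arrays gave -1.50 (called) to 0.22 for miR-29b and -1.40 (called) to 0.85 for miR-29c. Balbc minus FVB129B6 for miR-29a was -0.013 with Balbc replicates 2 and 3 averaged, -0.037 with the median of detected miRNAs and -0.024 without normalization, and left-out arrays gave -0.28 to 0.25. For miR-29b it was 0.022 with the 75th percentile, 0.066 with normexp, 0.042 with quantile normalization and 0.22 with slide row as a block, and left-out arrays gave -0.38 to 0.22. Against the mean gland, miR-29b was 0.34 with green over red, and miR-29c was 0.58 with the 75th percentile and 0.14 with the median of detected miRNAs; against FVB glands miR-29c was 0.72 and 0.44.

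Replicate numbers do not pair the arrays: after removal of group means, arrays of 1 number correlated by 0.044 on average (15 pairs) and others by -0.022 (30 pairs). With the replicate block 0 members were called in each strain contrast and 3 in each tumor contrast, and Balbc minus FVB for miR-29c was 0.013.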
